A study of Mus musculus with 4 samples.

Results

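The genes described here are those of DNA replication and of the step from G1 to S phase, in a mouse beta cell line depleted of the RNA-binding protein NF45. They were chosen by name: 32 genes were listed, and a gene was measured where a probe set carried its symbol and no other, with the brightest such probe set taken. This gave 30 of the 32, out of 22180 genes with such a probe set. For Ccne2, a second cyclin E gene, and Rfc4, a clamp loader subunit, the only probe sets also carried the symbol of another gene, and no value is given for them. All 30 reached the signal filter, a mean log2 level over the 4 arrays of at least 1.65, and so belonged to the 11742 genes that were tested. Of the 30, 7 were regulators (E2f1, E2f2, E2f3, E2f7, E2f8, Ccne1 and Cdc25a) and 23 were parts of the replication machinery or genes closely tied to it.

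Total RNA of Beta-TC-6 cells was hybridised to Mouse Gene 2.1 ST arrays of Affymetrix, 1 for each sample. In siNF45 (2 samples) the cells had been given a mixture of RNAi duplexes against NF45, the product of Ilf2, and in siNTC (2 samples) a negative control siRNA, both with the same lipid reagent. All cells grew in high-glucose medium with serum. The time after transfection is not given in the sources used here, nor whether the samples of a group were separate transfections, so the spread behind the p-values may be technical only. Beta-TC-6 is 1 cell line, known to derive from a beta cell tumour of a mouse with the simian virus large T antigen under an insulin promoter. That antigen is an oncoprotein that binds the Rb proteins and p53. Both groups are of this line, and whether the antigen was at the same level in them was not tested.

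As background, a cell that enters S phase first loads the MCM helicase onto replication origins, which takes the origin recognition complex, Cdc6 and Cdt1. Cyclin E with its kinase, and the kinase Cdc7, then help to turn the helicase on, together with Cdc45 and the GINS complex, and polymerases, the sliding clamp PCNA and its loader copy the DNA. Most of these genes, and cyclin E itself, are known targets of E2F transcription factors, which Rb proteins hold back until cyclin-dependent kinases release them. Beta cells of the adult islet divide rarely, whereas a beta cell tumour line cycles in culture.

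Ilf2, the targeted gene, had levels of 5.79 and 5.98 in siNTC and 3.67 and 3.77 in siNF45, a difference of -2.17 (SE 0.13, limma adjusted p = 0.02, 4.48-fold). An exact two-sided permutation test cannot go below p = 0.333 with 2 arrays against 2, and gave that value. Of 12 beta cell markers 11 were measured, and all of these passed the signal filter. Of 15 markers of other islet, exocrine, duct, endothelial, immune and mesenchymal cells, 4 passed it. These were Gcg (7.75 and 7.43 in siNTC, 7.61 and 7.53 in siNF45), Ppy (2.18 and 2.54 against 3.13 and 2.62), Krt7 (3.41 and 3.13 against 3.91 and 3.96) and Cd68 (2.01 and 1.79 against 1.88 and 1.60). The summed log2 level of the other-cell markers was 29.30 and 29.74 in the siNTC samples and between 29.81 and 31.01 in the siNF45 samples. The summed level of the 11 beta cell markers was between 77.45 and 78.18 in siNTC and between 76.33 and 76.68 in siNF45. The granule protein Chgb read 8.48 and 8.26 in siNTC and 7.52 and 7.68 in siNF45. The prohormone convertase Pcsk1 read 7.01 and 7.14 against 6.62 and 6.66. The other beta cell markers differed less. Over the 11, the median difference was -0.04, with 8 below 0 (61.3% of all tested genes) and 3 above. None of the markers was at 0, and the part of these shifts in the results below was not tested. The median of the tested genes was 3.82 and 3.76 in the siNTC samples and 3.72 and 3.60 in the siNF45 samples, lowest on siNF45 replicate 2. Over all probe sets, those under the filter included, the array medians were 1.64 on both siNTC arrays and 1.66 on both siNF45 arrays.

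No DNA replication or G1/S gene passed the test between siNF45 and siNTC cells. Most of their differences were small and below 0, and how many were depended on the scaling of the arrays. In RNA of a whole culture, fewer cells in S phase and less of these transcripts per cell cannot be told apart. Differences (siNF45 minus siNTC, log2) lay below 0 for 27 of the 30 genes, against 61.3% of all tested genes. Their median was -0.18, against -0.07 for all tested genes, and they ran from -0.55 for Ccne1 to 0.12 for Fen1. None of the 30 reached a limma adjusted p under 0.05, a threshold that 0.0852% of tested genes passed (0.0766% lower and 0.00852% higher), and the smallest adjusted p among them was 0.17. At an unadjusted p under 0.05, 6 were lower (E2f1, E2f2, Ccne1, Orc1, Mcm5 and Uhrf1), which is 6 of 30 against 13.2% of tested genes, and none was higher, against 4.02%. In either direction 17.2% of tested genes were under that p.

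In 22 of the 30 genes both siNF45 arrays read below both siNTC arrays, an arrangement seen in 32.6% of all tested genes. In 2, Gins1 and Fen1, both siNF45 arrays read above both siNTC arrays, against 15.2% of all tested genes. These counts moved with the scaling of the arrays. After quantile normalization 15 genes were separated downward, against 27.3% of tested genes, and after centring each array on the median of the tested genes, which adds 0.13 to every difference, 12 were, against 18.1%. Genes below 0 then numbered 25 (against 53.0% of tested genes) and 19 (against 39.5%), and genes lower at an unadjusted p under 0.05 numbered 5 (against 11.0%) and 3 (against 7.4%).

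The 95% intervals of single genes reached 0.29 to 0.57 to either side of the difference. On the values as deposited, the interval did not include a reduction of 1.5-fold (0.58 on the log2 scale) for 21 of the 30 genes, and for 9 it did. These intervals rest on the same spread as the p-values, which may be technical only. No gene had an interval that included a 1.5-fold increase, on the values as deposited. The replicates of these genes lay close together, with a median gap of 0.07 between the siNTC arrays and 0.10 between the siNF45 arrays, against 0.15 in both groups over all tested genes.

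**Figure D1:**
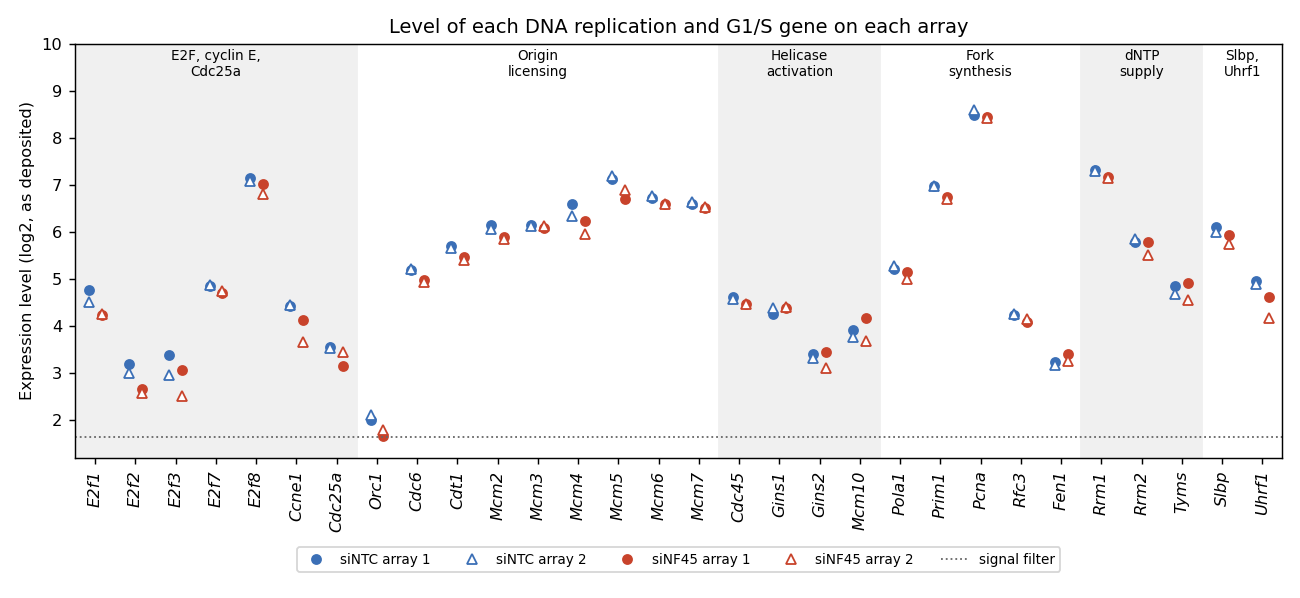
Expression level (log2, as deposited) of the 30 measured genes on each of the 4 arrays, grouped by role, with siNTC in blue and siNF45 in red. In 22 genes both red points lie below both blue points, and Orc1 lies closest to the signal filter at 1.65 (dotted line).

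**Figure D2:**
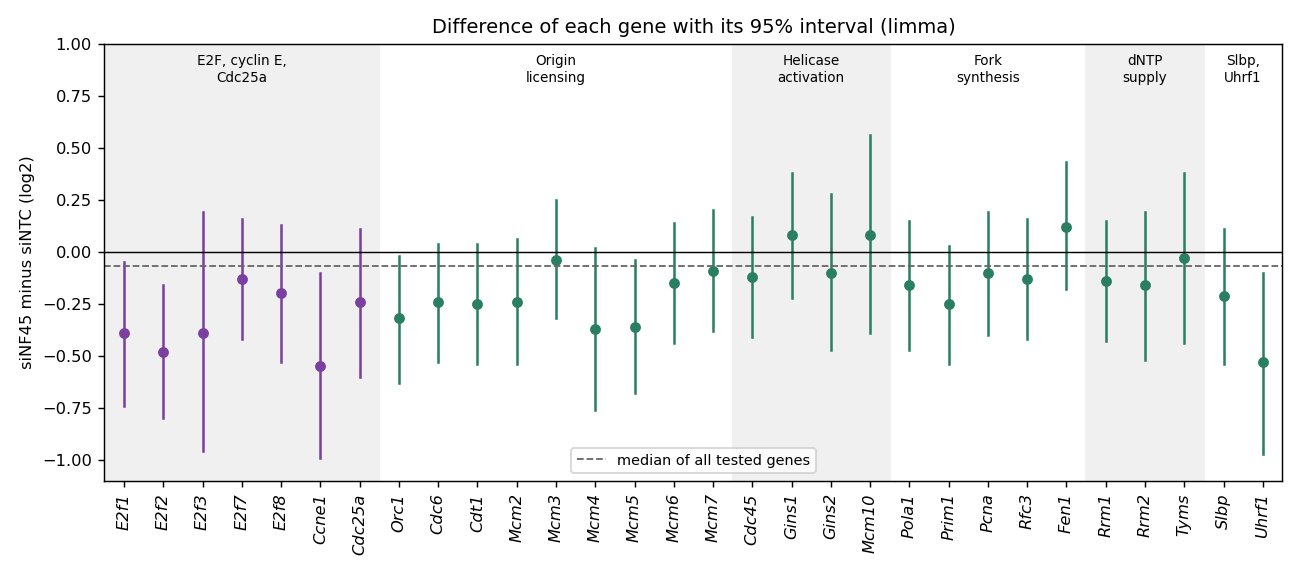
Difference of each gene (siNF45 minus siNTC, log2; points) with its 95% interval from limma (bars), regulators in purple and machinery in green. The dashed line is the median of all tested genes at -0.07, and the intervals of E2f1, E2f2, Ccne1, Orc1, Mcm5 and Uhrf1 lie wholly below 0.

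Among the regulators, the activator E2Fs and cyclin E had the largest differences on the values as deposited. E2f2, an activator that Rb restrains, had levels of 3.19 and 3.01 in siNTC and 2.66 and 2.58 in siNF45. Its difference was -0.48 (SE 0.13, limma adjusted p = 0.17), 1.39-fold lower, and its groups did not overlap. Of the 30 genes it had the smallest p, which placed it at rank 749 of the 11742 tested genes. E2f1, the best known activator of S-phase genes, read 4.77 and 4.51 in siNTC and 4.24 and 4.25 in siNF45, a difference of -0.39 (SE 0.14, limma adjusted p = 0.243). The siNF45 arrays nearly coincided and the gap between the siNTC arrays was 0.26, so the size of its difference depended on which control was used: -0.27 was the smallest and -0.53 the largest over all settings run. E2f3, the other activator, read 3.38 and 2.97 against 3.06 and 2.52, with a difference of -0.39 (SE 0.23) and groups that overlapped. It was -0.66 without siNF45 replicate 1 and -0.12 without siNF45 replicate 2.

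Ccne1 encodes cyclin E, which drives cells into S phase with Cdk2. It had levels of 4.42 and 4.45 in siNTC and 4.12 and 3.66 in siNF45, a difference of -0.55 (SE 0.18, limma adjusted p = 0.225) or 1.46-fold lower, the largest fold of the 30 as deposited. Both siNF45 arrays were lower, siNF45 replicate 2 much more so. The difference was -0.78 without siNF45 replicate 1 and -0.32 without siNF45 replicate 2. In the latter fit Mcm5 (-0.46), E2f2 (-0.44), E2f1 (-0.40), Cdc25a (-0.39) and Orc1 (-0.38) lay lower than Ccne1. The Ccne1 difference was -0.53 without siNTC replicate 2, where E2f3 (-0.59), E2f2 and Uhrf1 (-0.57 each) lay lower. Cdc25a, the phosphatase that removes inhibitory phosphate from Cdk2, read 3.55 and 3.53 against 3.15 and 3.44, a difference of -0.24 (SE 0.14), here with siNF45 replicate 1 as the lower array.

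The atypical E2Fs, which repress E2F targets later in the cycle, differed less. E2f7 read 4.85 and 4.87 in siNTC and 4.71 and 4.75 in siNF45, a difference of -0.13 (SE 0.12), and E2f8 read 7.16 and 7.08 against 7.03 and 6.81, a difference of -0.20 (SE 0.13). In both genes both siNF45 arrays read below both siNTC arrays as deposited (32.6% of all tested genes), and both intervals included 0.

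All 9 genes of origin licensing, the loading of the helicase onto origins, lay below 0 (61.3% of all tested genes), with a median of -0.24, and in 8 of the 9 both siNF45 arrays were below both siNTC arrays (32.6% of all tested genes). After centring, Mcm3 and Mcm7 lay above 0. Orc1, the subunit of the origin recognition complex whose level changes through the cycle, had the dimmest probe set of the 30. It had levels of 2.00 and 2.10 in siNTC and 1.67 and 1.78 in siNF45, a difference of -0.32 (SE 0.12, limma adjusted p = 0.267). Its siNF45 levels lay just above the filter of 1.65. The helicase loaders Cdc6 and Cdt1 had differences of -0.24 and -0.25 (SE 0.12 each). Cdc6 read 5.19 and 5.22 against 4.99 and 4.93, and Cdt1 read 5.70 and 5.66 against 5.46 and 5.40. For both, the gap between groups was larger than the gap between replicates, and neither passed (limma adjusted p = 0.356 and 0.348), with a standard error that limma moderates towards the spread of all genes.

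The subunits of the MCM2 to MCM7 helicase, which work as 1 ring, did not all differ by the same amount. Mcm5 had levels of 7.12 and 7.19 in siNTC and 6.70 and 6.89 in siNF45, a difference of -0.36 (SE 0.13, limma adjusted p = 0.25). Mcm4 read 6.59 and 6.35 against 6.24 and 5.96, a difference of -0.37 (SE 0.16), and Mcm2 read 6.16 and 6.07 against 5.90 and 5.85, a difference of -0.24 (SE 0.12). The remaining subunits lay nearer to 0: Mcm6 at -0.15, Mcm7 at -0.09 and Mcm3 at -0.04 (SE 0.12 each). Mcm3 read 6.16 and 6.12 against 6.09 and 6.12, the only one of the 6 whose groups overlapped as deposited. In the other subunits both siNF45 arrays read below both siNTC arrays, an arrangement seen in 32.6% of all tested genes. Mcm3 turned to 0.02 after quantile normalization and 0.10 after centring, where Mcm7 turned to 0.04. Whether the subunits differ from each other was not tested.

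The genes that turn the helicase on showed no common direction. Cdc45 was at -0.12 (SE 0.12), the GINS subunits Gins1 and Gins2 at 0.08 (SE 0.12) and -0.10 (SE 0.15), and Mcm10, a helicase cofactor, at 0.08 (SE 0.19). Mcm10 had levels of 3.92 and 3.77 in siNTC and 4.18 and 3.68 in siNF45, which thus lay on either side of both controls. Its difference was -0.17 without siNF45 replicate 1.

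Of the genes that copy DNA at the fork, the primase subunit Prim1 stood lowest. It read 6.97 and 6.99 against 6.74 and 6.71, a difference of -0.25 (SE 0.12, limma adjusted p = 0.336), with replicates within 0.03 of each other. Pola1, the catalytic subunit of the polymerase that extends primers, was at -0.16, the clamp loader subunit Rfc3 at -0.13 and the sliding clamp Pcna at -0.10 (SE 0.12 each). Pcna, with the brightest probe set of the 30, was at 8.48 and 8.60 in siNTC and 8.44 and 8.43 in siNF45. Fen1, the nuclease that trims Okazaki fragments, read 3.23 and 3.18 against 3.40 and 3.26, and at 0.12 (SE 0.12) had the highest difference of the 30. A dimmer second probe set of Fen1 was at 0.09, with overlapping groups (1.84 and 1.61 in siNTC, 1.88 and 1.76 in siNF45).

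The 3 enzymes of nucleotide supply lay below 0 as deposited (61.3% of all tested genes), with a median of -0.14. The ribonucleotide reductase subunits Rrm1 and Rrm2 were at -0.14 (SE 0.12) and -0.16 (SE 0.14), and thymidylate synthase, Tyms, at -0.03 (SE 0.17). Rrm2 read 5.78 and 5.85 against 5.79 and 5.51, so its difference rested on siNF45 replicate 2. Tyms read 4.85 and 4.68 against 4.92 and 4.55, with overlapping groups, and its difference turned above 0 in 4 of 12 alternative settings.

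Uhrf1, which brings the maintenance DNA methyltransferase to newly copied DNA, had the largest difference of the 23 machinery genes as deposited. It had levels of 4.96 and 4.89 in siNTC and 4.61 and 4.17 in siNF45, a difference of -0.53 (SE 0.18, limma adjusted p = 0.225). As for Ccne1, both siNF45 arrays were lower and siNF45 replicate 2 was the lower of them: the difference was -0.76 without siNF45 replicate 1 and -0.32 without siNF45 replicate 2. Slbp, which binds the stem-loop of histone mRNAs, read 6.11 and 6.01 against 5.94 and 5.75, a difference of -0.21 (SE 0.13).

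The regulators were compared with the machinery by counts and medians, without a test, since the genes were chosen with results known. The median difference was -0.39 over the 7 regulators and -0.15 over the 23 machinery genes, against -0.07 over all tested genes. Probe sets of the regulators were dimmer, with a median level of 4.16 against 5.56 for the machinery. Relative to all tested genes in the same quartile of level, the medians were -0.28 for the regulators and -0.10 for the machinery. All 7 regulators and 20 of the 23 machinery genes lay below 0, against 61.3% of all tested genes. At an unadjusted p under 0.05, 3 genes of each class were lower, against 13.2% of all tested genes, so the machinery was at the background share by this count. The mean level of the regulators was 4.47 and 4.35 in the siNTC samples and 4.14 and 4.0 in the siNF45 samples, and that of the machinery was 5.46 and 5.44 against 5.34 and 5.24. In both classes both siNF45 arrays read below both siNTC arrays. Over all tested genes the mean level was 4.0 and 3.94 against 3.92 and 3.85, arranged the same way.

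The distance between the classes, -0.23 between their medians, depended on single control arrays. It was -0.07 without siNTC replicate 1 and -0.39 without siNTC replicate 2, and -0.16 and -0.19 without siNF45 replicate 1 or 2. The median of the regulators was -0.24 without siNTC replicate 1 and -0.53 without siNTC replicate 2, and that of the machinery -0.23 without siNF45 replicate 1. Genes of the 30 that were lower at an unadjusted p under 0.05 numbered 0 and 2 without siNTC replicate 1 or 2, and 3 and 2 without siNF45 replicate 1 or 2, in fits where 7.1% to 11.7% of all tested genes were. After quantile normalization and centring the class medians were -0.31 and -0.26 for the regulators and -0.10 and -0.02 for the machinery, while all tested genes were at -0.02 and 0.06.

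**Figure D3:**
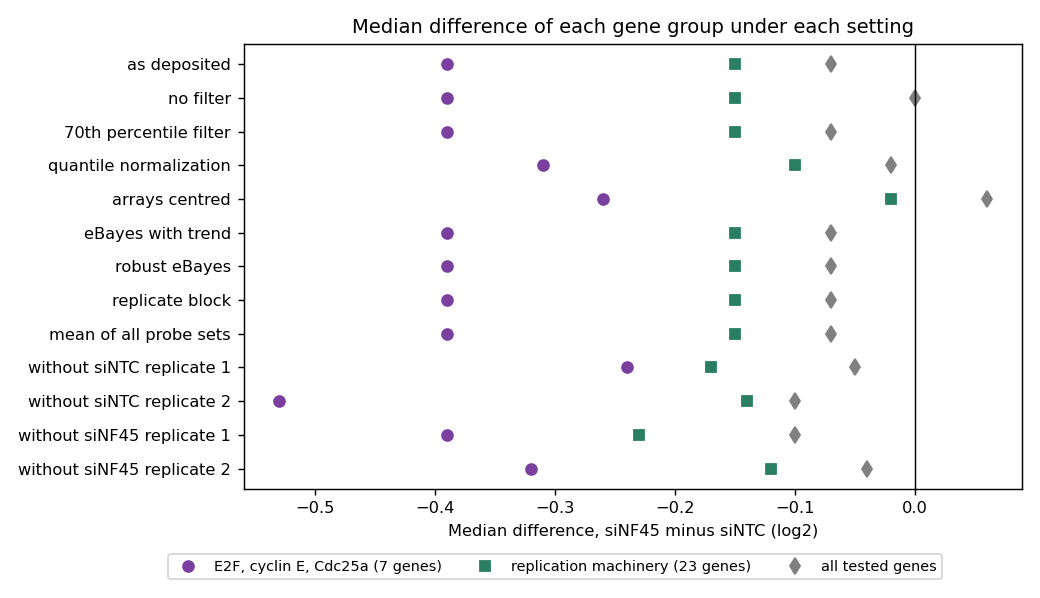
Median difference (siNF45 minus siNTC, log2) of the regulators (purple circles), the replication machinery (green squares; 22 genes under the 70th percentile filter) and all tested genes (grey diamonds) under each setting. The regulators lie furthest left in every setting drawn, and their distance from the machinery is smallest without siNTC replicate 1.

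Since most of these genes are textbook E2F targets, their promoters were searched for the E2F consensus in its exact forms TTTCCCGC, TTTCGCGC, TTTGCCGC and TTTGGCGC on both strands. The windows run from 250 bases before to 50 after the start of the gene and come from RefSeq on GRCm38.p6; 27 of the 30 genes had one. Of these 27, 14 held at least 1 of the 4 words (51.9%), against 4.7% of the 9235 tested genes with a window and 2.26% of all 32851 windows. The words were found in 7 of 8 origin licensing genes, 4 of 7 regulators, 2 of 5 fork synthesis genes and 1 of the pair Slbp and Uhrf1, and in 0 of 2 helicase activation and 0 of 3 nucleotide supply genes. Genes with a word had a median difference of -0.24 and the 13 without one -0.16, and over all tested genes the medians were -0.10 for 434 genes with a word and -0.06 for 8801 without. The order was the opposite within the regulators, at -0.32 with a word and -0.39 without, and in the other replication machinery, at -0.06 and -0.10. The CCAAT box, which binds NF-Y, was found in 21 of the 27, against 43.3% of tested genes, and the word TTTGAA of the cell cycle homology region, typical of mitotic genes, in 6 of 27, against 14.1%. A match is a description of the sequence and shows no binding.

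The windows of the 2 regulators and the 3 machinery genes with the smallest p follow, to let the E2F words be seen in place, in capitals, with the rest in lower case, 5′ to 3′ on the strand of the gene. Overlapping words form 1 run of capitals, as in Mcm5. E2f2 and Uhrf1 have 2 windows each, and the window that holds a word is the one shown.
E2f2 (chr4:136172024-136172323, plus strand): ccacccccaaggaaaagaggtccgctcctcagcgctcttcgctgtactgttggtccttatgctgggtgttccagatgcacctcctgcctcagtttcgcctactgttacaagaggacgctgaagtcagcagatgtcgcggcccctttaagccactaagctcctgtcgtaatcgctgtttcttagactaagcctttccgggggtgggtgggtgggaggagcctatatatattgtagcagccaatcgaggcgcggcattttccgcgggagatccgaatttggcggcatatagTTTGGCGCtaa
Ccne1 (chr7:38107441-38107740, minus strand): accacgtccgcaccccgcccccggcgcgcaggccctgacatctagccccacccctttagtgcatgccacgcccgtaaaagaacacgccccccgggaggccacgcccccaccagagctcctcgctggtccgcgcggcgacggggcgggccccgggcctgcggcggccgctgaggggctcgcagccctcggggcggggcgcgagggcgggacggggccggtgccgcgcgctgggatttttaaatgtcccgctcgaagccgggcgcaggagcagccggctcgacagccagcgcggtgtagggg
Uhrf1 (chr17:56304063-56304362, plus strand): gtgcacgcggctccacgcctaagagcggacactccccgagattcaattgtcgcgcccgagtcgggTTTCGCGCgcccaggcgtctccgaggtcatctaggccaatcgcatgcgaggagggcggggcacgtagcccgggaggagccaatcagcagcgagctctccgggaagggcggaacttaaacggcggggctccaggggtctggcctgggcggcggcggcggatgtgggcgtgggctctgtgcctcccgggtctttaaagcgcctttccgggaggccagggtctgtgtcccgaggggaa
Mcm5 (chr8:75109259-75109558, plus strand): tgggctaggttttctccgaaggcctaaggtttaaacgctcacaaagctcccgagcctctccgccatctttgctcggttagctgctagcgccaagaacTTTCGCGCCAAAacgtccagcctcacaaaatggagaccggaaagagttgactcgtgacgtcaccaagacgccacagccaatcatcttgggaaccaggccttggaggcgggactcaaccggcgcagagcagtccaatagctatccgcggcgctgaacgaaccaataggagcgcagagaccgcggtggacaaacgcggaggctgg
Orc1 (chr4:108579204-108579503, plus strand): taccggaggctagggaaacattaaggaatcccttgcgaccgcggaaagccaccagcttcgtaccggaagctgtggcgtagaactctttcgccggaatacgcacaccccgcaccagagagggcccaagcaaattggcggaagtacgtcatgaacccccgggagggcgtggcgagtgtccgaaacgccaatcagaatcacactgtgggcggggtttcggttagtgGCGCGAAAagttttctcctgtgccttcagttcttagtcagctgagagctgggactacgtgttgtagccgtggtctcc

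In E2f2 the word lies 39 bases after the start of the first of its 2 windows, and the second window has none. In Orc1 the word lies 27 bases before the start, and in Uhrf1 185 bases before the start of the second of its 2 windows. Mcm5 holds 2 overlapping words, 153 and 149 bases before the start, with 3 CCAAT boxes in the same window. Ccne1 has none of the 4 words in its window, whose GC content is 76%. No match says only that these letters are not in this window.

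Replication and G1/S genes outside the list had medians closer to that of all tested genes. The listed genes were chosen with results known, so this contrast may be built in, and it was not tested. By the count lower at an unadjusted p under 0.05, the other G1/S regulators (7 of 27) were not closer than the listed genes (6 of 30). Of 47 tested genes of the other replication machinery, 33 lay below 0 and the median was -0.09, against 61.3% below 0 and a median of -0.07 over all tested genes. None passed over all genes, and at an unadjusted p under 0.05, 5 of the 47 were lower and none higher, a share of lower genes under the 13.2% of all tested genes. The genes with the smallest p were Chaf1a and Chaf1b, subunits of the chromatin assembly factor that PCNA brings to new DNA. Chaf1a had levels of 4.17 and 3.94 in siNTC and 3.44 and 3.56 in siNF45, a difference of -0.55 (SE 0.14, limma adjusted p = 0.153). Chaf1b read 6.50 and 6.37 against 6.01 and 5.95, a difference of -0.46 (SE 0.12, limma adjusted p = 0.17). Both were separated downward, as were 32.6% of all tested genes. Timeless, of the fork protection complex, was at -0.37 (SE 0.12), and Donson, a helicase assembly factor, at -0.69 (SE 0.27), with siNTC replicate 1 at 4.78 far above siNTC replicate 2 at 4.03.

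Of 30 other G1/S regulators 27 were tested, since Ccnd1, Cdk6 and Cdkn1c did not reach the signal filter. In these, 19 lay below 0 (61.3% of all tested genes) and the median was -0.09. None passed over all genes, and at an unadjusted p under 0.05, 7 of the 27 were lower and none higher, against 13.2% and 4.02% of all tested genes. E2f6, a repressor of the E2F family, read 3.93 and 3.80 in siNTC and 3.31 and 3.27 in siNF45, a difference of -0.57 (SE 0.12, limma adjusted p = 0.132). Lin52, a subunit of the DREAM complex that silences cell cycle genes in resting cells, was at -0.62 (SE 0.15, limma adjusted p = 0.145), and Mybl2, a Myb protein that joins the core of that complex in cycling cells, at -0.61 (SE 0.15, limma adjusted p = 0.15). Ccnd2, a D-type cyclin, read 5.97 and 6.35 against 5.60 and 5.55, a difference of -0.58 (SE 0.16, limma adjusted p = 0.178). Each of these 4, named for having the smallest p, was separated downward (32.6% of all tested genes). Each difference was larger than that of any of the 30 listed genes, as point estimates on the values as deposited.

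Among 10 genes of the replication checkpoint, the signalling that slows the cycle when forks stall, 8 lay below 0 (61.3% of all tested genes). Their median was -0.14. The kinase Atr was at -0.35 (SE 0.14) and the clamp subunit Rad9a at -0.31 (SE 0.13; limma adjusted p = 0.287 and 0.288). Both had an unadjusted p just under 0.05, which is 2 of 10 against 13.2% of all tested genes. Hus1 was at -0.24 and Rad17 at -0.25. Mitotic genes, which act after S phase, had a median of -0.08 over 29 tested, near the -0.07 of all tested genes. Of these 29, 20 lay below 0, against 61.3% of all tested genes. At an unadjusted p under 0.05, 1 gene was lower, against 13.2% of all tested genes. That gene was Birc5, which encodes the survival factor survivin and differed by -0.72 (SE 0.16, limma adjusted p = 0.135). The next by p were the spindle protein Nusap1 (0.38), the kinetochore motor Cenpe (-0.27) and the phosphatase Cdc25b (-0.20). None of the mitotic or checkpoint genes passed over all genes. Downward separation was seen in 18 of 47 other machinery genes, 11 of 27 other G1/S regulators, 3 of 10 checkpoint genes and 13 of 29 mitotic genes, against the 32.6% of all tested genes.

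**Figure D4:**
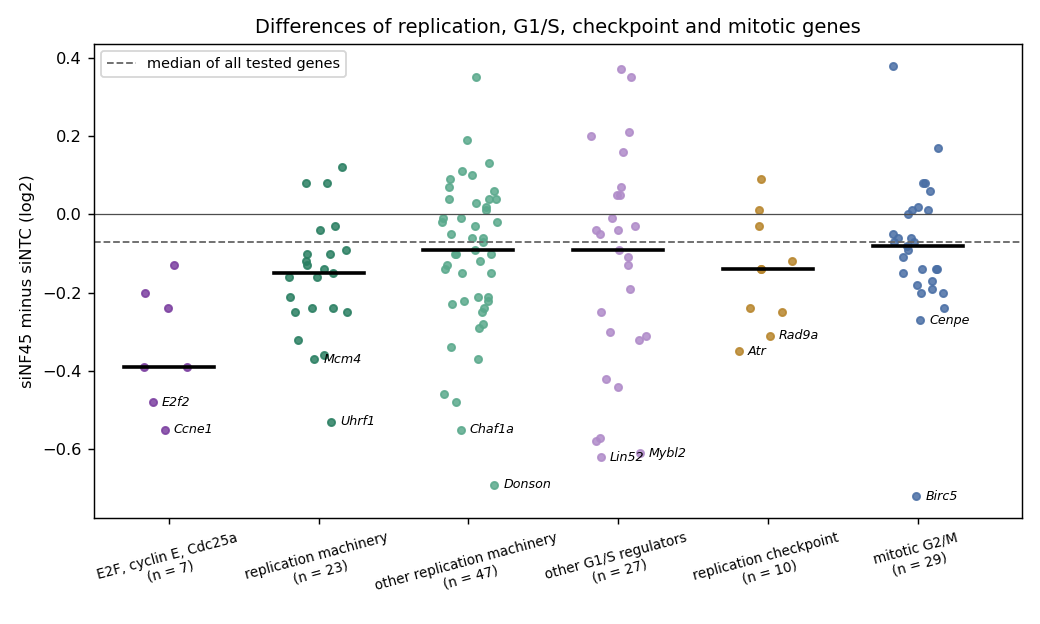
Differences (siNF45 minus siNTC, log2) of single genes in the 2 classes of the list and in the 4 related lists, with the median of each as a bar and the 2 lowest genes named. The medians are -0.39 and -0.15 in the list and between -0.14 and -0.08 in the related lists, and the dashed line is the median of all tested genes at -0.07.

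Probe sets of the listed genes gave more signal than most, with a median of 4.94 on the log2 scale against 3.73 for all tested genes, which is no comparison of transcript amounts between genes, and 14 of the 30 lay in the brightest quartile of tested genes. In that quartile (levels from 5.11 to 11.32) the median difference of all genes was -0.05, and 59.1% of them lay below 0. The 14 listed genes had a median of -0.18 and all lay below 0 as deposited. After centring, Mcm3, Mcm7 and Pcna of these lay above 0. In the third quartile the medians were -0.13 for 10 listed genes and -0.08 for all genes, and in the second -0.24 for 5 listed genes and -0.11 for all. Taken against the median of their own quartile, 24 of the 30 genes lay below 0 and the median was -0.13. Against the median of all tested genes, 25 lay below it as deposited and 24 to 27 under the 12 alternatives.

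**Figure D5:**
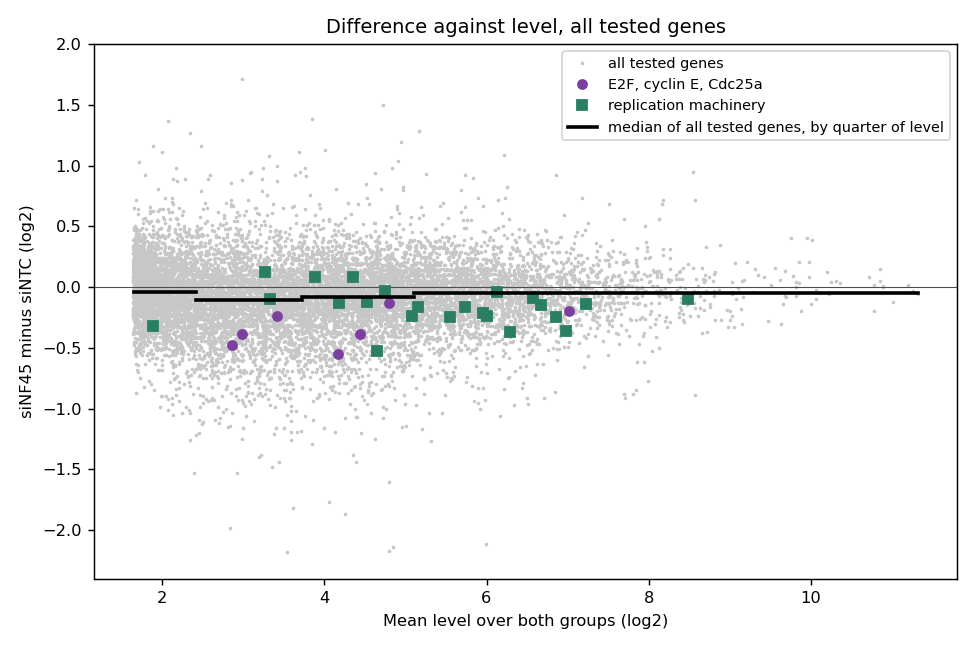
Difference (siNF45 minus siNTC, log2) against mean level (log2) for all tested genes (grey), the regulators (purple circles) and the machinery (green squares). Black bars mark the median of all tested genes in each quartile of level, from -0.11 to -0.04, and most of the coloured points lie below them.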

How the data were processed

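Each sample was hybridised to 1 array, 2 per group. The deposited table holds 1 log2 value per probe set and array; per the submitters' processing notes the authors used Transcriptome Analysis Console. The sources used here give neither its version nor the summarisation or background correction. The log base is also unstated: values ran from 0.12 to 12.21, were taken as log2, and all folds rest on that. Of 41345 probe sets, 23521 carried 1 gene symbol, 1814 several, and 16010 were unnamed here. All 30 measured members were found by gene number in RefSeq (GRCm38.p6), and 0 symbols needed updating.

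Probe sets with 1 symbol and a mean at or above the median of all probe sets (1.65) were kept, the brightest per gene. limma 3.58.1 in R 4.3.3 (lmFit, eBayes, no covariate) was fitted to all 11742 genes, with Benjamini-Hochberg adjustment over all of them. Residual degrees of freedom were 2, with 3.69 more from the prior. The script was tested on simulated data. The members and lists were chosen with earlier results of these data known. Named were Ilf2, all members and, of each related list, the 4 genes with the smallest p; other names were chosen after their values were seen. The number of arrays limits the precision.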

Additional observations from a re-analysis of the deposited data

How the results depend on the processing

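None of the 30 genes reached an adjusted p under 0.05 in any of the 12 alternative fits, and 0 did at an adjusted p of 0.10 or in an unmoderated per-gene test; at an unadjusted p under 0.05, 6 did. The smallest limma adjusted p of a listed gene ranged from 0.114 with a trend in eBayes to 0.473 without siNTC replicate 1. Genes called over all tested genes numbered 10 as deposited, 174 with a trend, 172 after centring, 87 with the filter at the 70th percentile, 62 after quantile normalization, 190 at an adjusted p of 0.10, 2022 at an unadjusted p under 0.05, and 0 in an unmoderated test (smallest adjusted p 0.263, with 1356 genes at an unadjusted p under 0.05), where 15 genes without any spread were left out. Without 1 array the count ranged from 0 to 0, with between 1236 and 1670 below the unadjusted threshold. The lone array of a group is then assumed to vary like the other group. As deposited, 1550 genes were lower and 472 higher at an unadjusted p under 0.05; after centring 869 were lower and 1251 higher.

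The median of the 30 genes was -0.05 after centring and, in a setting chosen after seeing the data, -0.13 relative to genes of the same level quartile. The median of the regulators was -0.26 after centring and -0.28 relative to the same quartile. That of the machinery was -0.10 after quantile normalization, -0.02 after centring and -0.10 relative to the same quartile. Without 1 array the medians ranged from -0.26 to -0.14 (all 30), from -0.53 to -0.24 (regulators) and from -0.23 to -0.12 (machinery). Of 359 alternative values of single genes, 347 kept their direction, and 23 genes changed sign in no fit, with E2f7 and Rfc3 at 0.00 after centring. The other 12 values belonged to 7 genes. After quantile normalization Mcm3 turned to 0.02 and Tyms to 0.04, and after centring Mcm3 to 0.10, Mcm7 to 0.04, Cdc45 to 0.01, Gins2 to 0.03, Pcna to 0.02 and Tyms to 0.10, since centring adds 0.13 to every gene. Tyms was 0.05 without siNTC replicate 1 and 0.15 without siNF45 replicate 2, Gins2 was 0.07 without siNF45 replicate 2, and Mcm10 ranged from -0.17 to 0.33 and Tyms from -0.22 to 0.15 over the fits without 1 array.

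Both groups have replicate numbers 1 and 2, which no label says pair the samples. Deviations of same-numbered arrays correlated at 0.00615 over 11742 genes. The fit with the replicate block called 0 genes and 0 of the 30, with 1909 genes at an unadjusted p under 0.05 and fewer residual degrees of freedom, and Ilf2 at -2.17 (limma adjusted p = 0.258). Other causes of these changes were not tested.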
